A study of Mus musculus with 2 samples.

Results

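The cluster of miRNA genes in an intron of Sfmbt2 was followed in the intestine of newborn mice. Its members are all rows of the count tables that lie on the plus strand of chromosome 2 between 10370000 and 10600000 (GRCm38), which gave 107 of 1973 miRNA gene rows. MicroRNA-seq was done on 2 B6NCrl pups of postnatal day 0, born to 1 female and named pup 1 and pup 2 here, with 1 library per pup. They carried no treatment or genotype that the labels name, and there was 1 group, so the data describe levels and the difference between littermates. The labels name 1 intestine per pup and no segment, so fewer cells of a type and less RNA per cell cannot be told apart. Whether the same parts were taken from both pups is not stated.

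MicroRNAs are cut from hairpins in longer transcripts and pair with target messenger RNAs mainly through the seed, the bases near their 5′ end. Sfmbt2 encodes a Polycomb group protein and is imprinted in mice, with expression from the paternal copy in extraembryonic tissue. The miRNA cluster in its intron is known in rodents, arose by repeated local duplication, and is best known from placenta and early embryonic cells. Named members are called Mir297, Mir466, Mir467 and Mir669, after sequence relatives rather than after function.

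All 107 members sit in 1 intron of the host gene. Sfmbt2 spans 10370510 to 10595253 on chromosome 2, and the intron runs from 10461473 to 10523944, between exons 10 and 11 of one annotated coding transcript and exons 11 and 12 of another. The members span 52993 bases of it, from 10465287 to 10518279. Of them, 59 have a Mir symbol and 48 are numbered gene models, and their annotated hairpins are 73 to 127 bases long. A further 12 miRNA genes annotated in the window, 9 of them in the series Mir669a-4 to Mir669a-12, had no row under the same identifier and were not analysed here.

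Sequencing gave 6375694 reads for pup 1 and 8373497 for pup 2. Counts on the strand of the annotated miRNA genes came to 3567658 and 4683939. Reads mapping to several places, 30.3% of the library in pup 1 and 29.8% in pup 2, entered no count, so every level below is that of reads with a single place in the genome. Levels are given as counts per 1000000 counts in miRNA genes (CPM), and every ± is the SD over the 2 pups. Each read covers the short mature RNA, so no scaling by length was applied, and differences in capture between miRNAs remain in the levels. Of the miRNA markers of gut epithelium, 9 of 9 were detected and took 28.7% of counts in pup 1 and 33.3% in pup 2. Of 10 early embryonic miRNAs of the Mir290 to Mir295 and Mir302 groups, 2 were detected and 2 were at 0. Together these 10 had 17.7 and 12.4 CPM.

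Sequences of relatives with the same family names elsewhere in the genome are given as examples, and are not sequences of members. Of the members, 0 of 107 matched an entry of the RefSeq miRNA table used here. Of 10 rows with these family names outside the window, 8 had a mature sequence in it (GRCm38.p6). The 5 below carry the name Mir467, the family that leads the cluster, or Mir466 or Mir669. Whether they resemble the mature RNAs of the members was not tested. Capitals mark the seed, bases 2 to 8 from the 5′ end. The mature RNAs lie at chr11:69635419-69635439 on the minus strand (miR-467f), chr5:34732872-34732892 on the minus strand (miR-467g), chr9:115381898-115381919 (miR-467h), chr3:85467396-85467418 (miR-466k) and chr3:115979905-115979924 (miR-669n), the last 3 on the plus strand.
miR-467f: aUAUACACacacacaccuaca
miR-467g: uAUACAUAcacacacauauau
miR-467h: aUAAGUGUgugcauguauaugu
miR-466k: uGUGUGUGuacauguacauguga
miR-669n: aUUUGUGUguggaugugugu
The 8 mature sequences held 8 different seeds. Their longest runs of alternating C and A, or of alternating G and U, were 7 to 12 bases. In the hairpins of the cluster the median longest run was 9 bases (range 5 to 25), against 4 over all 1894 rows with an annotated hairpin. Hairpins are longer than mature RNAs and leave more room for a run, so these values cannot be set against those of the mature sequences. A run of at least 10 bases was present in 29 of 107 members (27.1%), in 3 of the 8 detected members described next, and in 7.97% of all rows. The 10 outside relatives held almost no reads: 9 had 0 counts in both pups and Mir466q on chromosome 3 had 0 counts in pup 1 and 1 in pup 2.

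Few members of the cluster left reads that could be placed. With at least 10 counts required in each library, 8 of 107 members were detected (7.48%), against 314 of all 1973 rows (15.9%). Another 10 members had between 1 and 10 counts in at least 1 pup, and 89 had 0 counts in both. Most rows outside the cluster were empty as well: over all 1973 rows, 1301 had 0 counts in both pups. The cluster took 5718 counts in pup 1 and 6349 in pup 2, which is 1603 and 1355 CPM, or 0.148% ± 0.0175 of all miRNA counts. The 8 detected members held 99.7% of these counts in each pup.

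**Figure D1:**
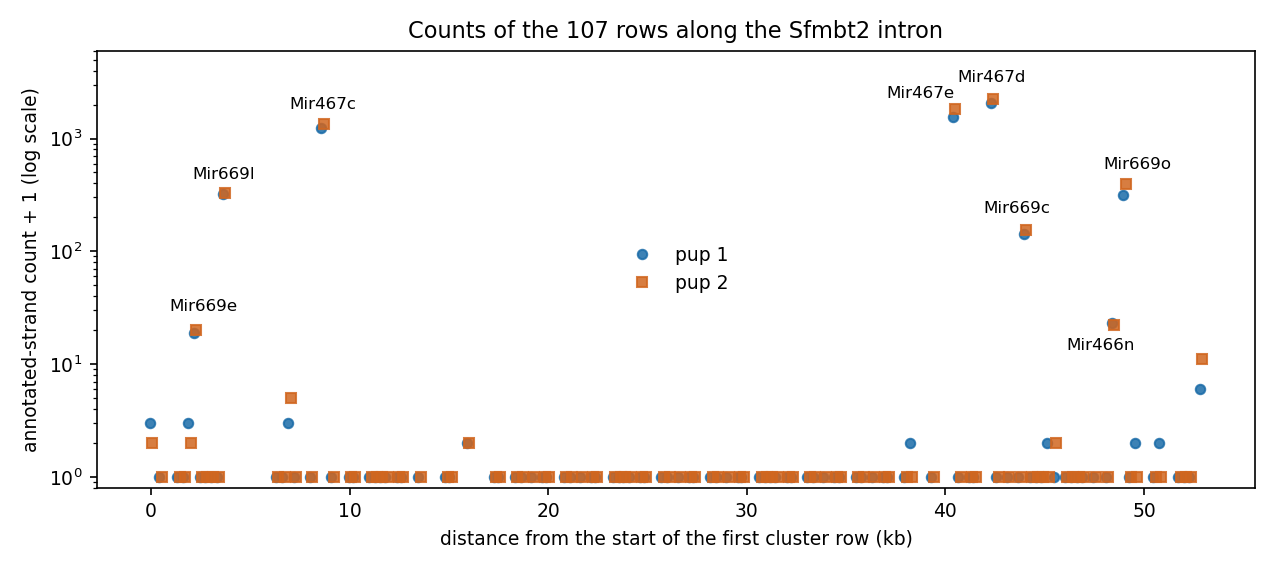
Counts of the 107 members plotted as count + 1 on a log scale against distance in kb from the start of the first member, circles for pup 1 and squares for pup 2. The 8 labelled members lie toward both ends, and the 60 members between Mir467c and Mir467e sit at 0 counts or, in Mir467b and Mir466b-3, at 1.

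The Mir467 genes led the cluster, and of that family Mir467d, Mir467e and Mir467c carried nearly all of it. Together these 3 genes took 85.5% of the cluster's counts in pup 1 and 85.3% in pup 2. Mir467d (10507630 to 10507714) was read 2082 times in pup 1 and 2245 times in pup 2, or 584 and 479 CPM. Mir467e (10505721 to 10505807) had 1563 and 1830 counts, or 438 and 391 CPM. Mir467c (10473931 to 10474027), which ends 31693 bases before Mir467e starts, had 1245 and 1342 counts, or 349 and 287 CPM. The order Mir467d, Mir467e, Mir467c was the same in both pups, and the values of neighbours in that order did not overlap between pups. Mir467d exceeded Mir467e by 1.33 times in pup 1 and 1.23 times in pup 2. By mean level these 3 ranked 100, 111 and 123 among the 314 detected rows.

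The other Mir467 rows were nearly empty. The 10 Mir467a copies, Mir467a-1 to Mir467a-10, had 0 counts in both pups, and Mir467b had 1 count in each. The Mir467a copies lie 2413 to 4880 bases apart, start to start, with a median of 2462 bases, between 10476346 and 10503355. With 0 counts a level of up to 3 counts is possible, or 0.841 CPM (pup 1) and 0.640 CPM (pup 2). That limit covers counting error and reads with a single place only, and says nothing of reads that match several copies.

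The Mir669 genes came second, with 223 CPM in pup 1 and 193 CPM in pup 2 over 20 rows, of which 4 were detected and 14 had 0 counts in both pups. Mir669o (10514300 to 10514395) had 312 and 395 counts, or 87.5 and 84.3 CPM. Mir669l (10468971 to 10469068) had 319 and 325 counts, or 89.4 and 69.4 CPM. These levels overlapped: Mir669l exceeded Mir669o in pup 1 and the reverse held in pup 2, so the data do not order them. Mir669c (10509296 to 10509404) followed with 141 and 154 counts, or 39.5 and 32.9 CPM, below both in each pup. Mir669e (10467495 to 10467613) was near the limit of detection with 18 and 19 counts, or 5.05 and 4.06 CPM.

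Mir466 and Mir297 genes held few of the placed reads. Of 20 Mir466 rows 1 was detected, Mir466n (10513741 to 10513834), with 22 and 21 counts, or 6.17 and 4.48 CPM, and its values overlapped those of Mir669e. Single reads fell in pup 1 on Mir466b-3, Mir466h and Mir466l, and the other 16 Mir466 rows had 0 counts in both pups. Of 5 Mir297 rows, Mir297a-2 had 2 and 4 counts and the other 4 had 0. The last member of the cluster, Mir669h, had 5 counts in pup 1 and 10 in pup 2, and so missed the minimum in pup 1, and Mir669f had 2 and 1. Of the 48 numbered gene models, 45 had 0 counts in both pups, Gm22072 had 2 and 1, Gm22239 had 1 and 0, and Gm22925 had 0 and 1.

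**Figure D2:**
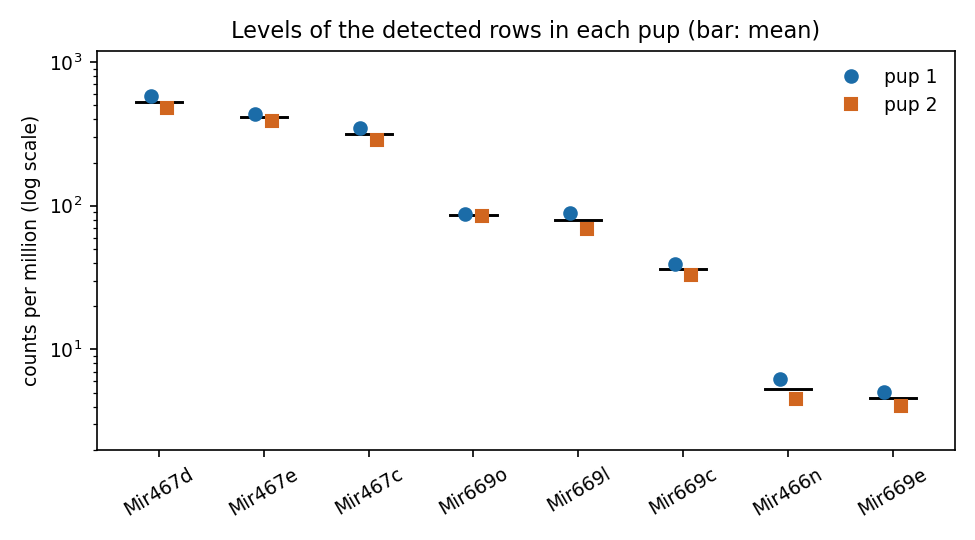
Levels of the 8 detected members in CPM on a log scale, circles for pup 1, squares for pup 2 and a bar at the mean. Mir467d, Mir467e and Mir467c form the top group between 287 and 584 CPM, Mir669o and Mir669l overlap between 69.4 and 89.4, and Mir466n and Mir669e overlap between 4.06 and 6.17.

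The detected members lay toward both ends of the cluster. Mir669e, Mir669l and Mir467c are the 6th, 11th and 17th of the 107 members in order of position, and the other 5 are the 78th or later. Between Mir467c and Mir467e lie 60 members, among them all 10 Mir467a copies, and these 60 had 2 counts in pup 1 and 1 in pup 2 in all. Adjacent members differed as widely: the 3 members between Mir467e and Mir467d, Mir466p among them, and the 3 between Mir467d and Mir669c, Mir466 and Mir297c among them, had 0 counts. Reads on the opposite strand were absent from the cluster, with 0 in 107 members in both pups. Over all rows they numbered 126262 and 161133, and the share of rows that held any was not computed.

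Position and sequence sharing went together. For each hairpin, the share of its 22-base windows found in no other of 2202 annotated miRNA hairpins, on either strand, was computed. Over all 1894 rows with a hairpin the median share was 100%, and over the cluster it was 27.4%. The 60 members between Mir467c and Mir467e had a median of 0%, and 40 of them had no such window, whereas the 47 members outside that stretch had a median of 53.0%. The limits of the stretch are detected members, so they were drawn from the counts themselves. Shares inside it reached 77.2%, in Gm23988, which had 0 counts in both pups. In the cluster 38 members were identical over their whole hairpin to another annotated hairpin.

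All 42 members without any window of their own had 0 counts in both pups, as had 89 of all 107 members and 1301 of all 1973 rows. A read that maps to several places is given to no gene. Of all 1894 rows with a hairpin, 260 had no window of their own, and 4 of these were among the 314 detected rows. How many of the 260 had 0 counts was not computed. Of the 29 members in which at least 50% of windows were their own, 7 were detected and 15 had 0 counts. Of the 78 members under 50%, 1 was detected, and this was Mir467d, the highest of the cluster, with 39.1%. The other detected members had 53.2% (Mir669l), 58.7% (Mir669o), 58.9% (Mir466n), 59.1% (Mir467e), 63.2% (Mir467c), 83.0% (Mir669c) and 96.9% (Mir669e). Mir466g, with 100% of windows of its own, had 0 counts in both pups. Windows were compared with miRNA hairpins only, so a window of a member's own may still occur elsewhere in the genome. All 8 detected members also had a run of 24 to 60 bases in common with some other hairpin, and whether their mature RNAs fall in it was not tested. How far the lost multi-mapped reads account for the counts of 0 was not tested.

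**Figure D3:**
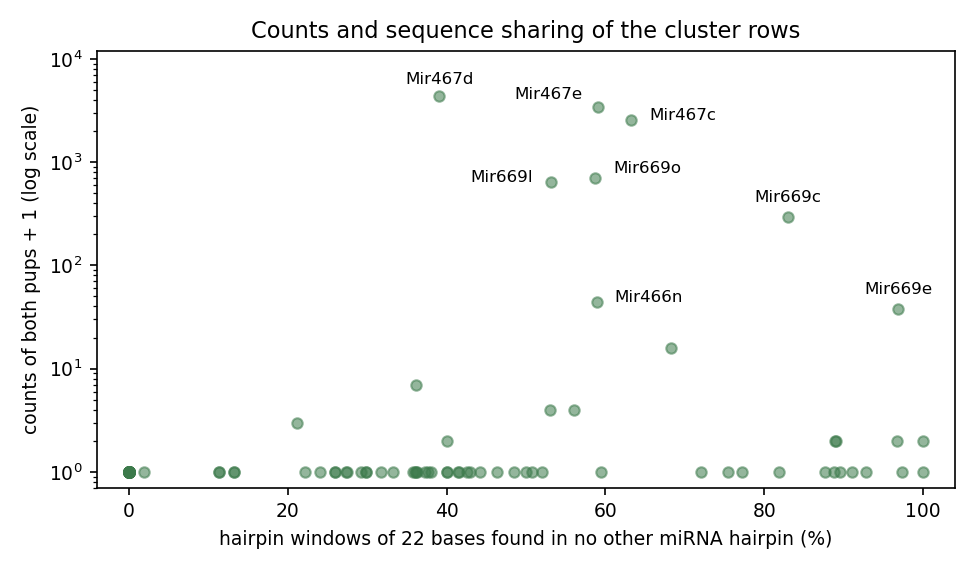
Counts of both pups + 1 on a log scale against the percent of 22-base hairpin windows found in no other miRNA hairpin, 1 point per member, with darker points where members coincide. Members at 0% all have 0 counts, and the 8 labelled members lie between 39.1% and 96.9%.

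The rows from Mir379 to Mir410 on chromosome 12, the other large imprinted miRNA cluster of the mouse, gave a different picture with the same counting. There 28 of 33 rows were detected (84.8%), and their sum was 22236 CPM in pup 1 and 18126 CPM in pup 2. Of these 33 hairpins, 31 shared no window of 22 bases with another hairpin, and none held an alternating run of 10 bases. The difference in detection between the clusters was not tested.

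Between the littermates the cluster was slightly lower in pup 2. For each detected gene the split of reads was set against the ratio of TMM-scaled library sizes (exact binomial, 2-sided), with Benjamini-Hochberg adjustment over all 314 genes. This compares 2 libraries and contains no replicate of either, and its p-values and intervals cover counting error only, taking reads as independent molecules, which they are not known to be. All 8 detected members had a log2 ratio below 0, pup 2 over pup 1, as had 155 of all 314 genes. With upper-quartile scaling 7 of 8 did, and Mir669o was above 0. The median of the 8 with TMM was -0.24, beside 0.00 over all genes tested. The 8 lie in 1 intron and are not replicates of one another. Of the 8, 4 were called lower and 0 higher (3 lower with upper-quartile scaling). Over all 314 genes 41.1% were called, and 19.7% were called lower.

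Mir467d had a log2 ratio of -0.24 (95% interval -0.33 to -0.15, adjusted p = 1.85e-07, exact binomial test), a level 1.18-fold higher in the library of pup 1. Mir467c had the same ratio of -0.24 (-0.35 to -0.13, adjusted p = 8.23e-05, exact binomial). Mir669l had -0.32 (-0.55 to -0.10, adjusted p = 0.0138, exact binomial). Mir467e differed least of the called genes, with -0.12 (-0.22 to -0.02, adjusted p = 0.0353, exact binomial), and was not called with upper-quartile scaling, where its ratio was -0.08.

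The other 4 did not pass. Mir669c had a log2 ratio of -0.22 (-0.56 to 0.12, adjusted p = 0.351, exact binomial), a size like that of Mir467d at a lower count. Mir466n had -0.42 (-1.35 to 0.51) and Mir669e -0.27 (-1.28 to 0.74), with intervals too wide to show a difference of this size. Mir669o had -0.01 (-0.23 to 0.21), and its sign changed with upper-quartile scaling. Scaling also moved the calls over all genes: 62 of 129 calls were lower in pup 2 with TMM, 74 of 127 with total counts and 46 of 130 with upper quartiles. In the Mir379 to Mir410 rows 11 of 28 genes were called lower and 1 higher, with a median of -0.11. Markers of gut epithelium took more of the counts in pup 2 (33.3% against 28.7%) and smooth muscle miRNAs more in pup 1 (18.1% against 15.0%). Mir196b had 7337 counts in pup 1 and 310 in pup 2, and Mir196a-2 had 272 and 35. The part of these differences in that of the cluster was not tested.

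**Figure D4:**
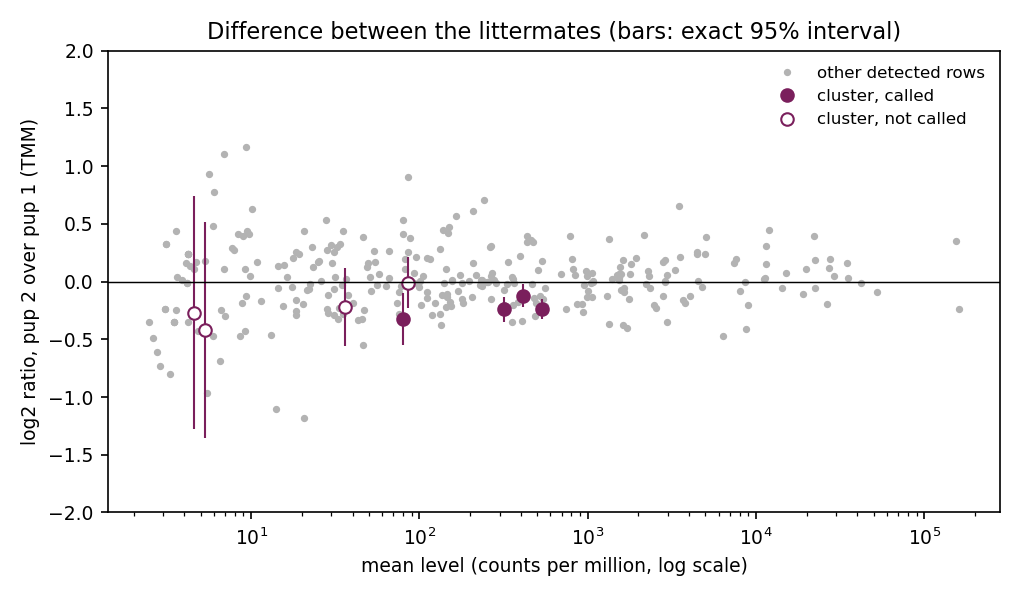
Log2 ratio of pup 2 over pup 1 against mean level in CPM (log scale), grey points for other detected rows and larger points for the cluster, filled where called, with bars for the exact 95% interval. With TMM scaling all 8 members lie below 0, from -0.01 to -0.42 (7 with upper-quartile scaling), within the cloud of other rows. The 2 rows beyond the axis, Mir196b (-4.91) and Mir196a-2 (-3.31), are not drawn.

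The makeup of the cluster differed little between the pups. Mir467d took 36.4% of the cluster's counts in pup 1 (Wilson 95% interval 35.2 to 37.7) and 35.4% in pup 2 (34.2 to 36.5). Mir467e took 27.3% (26.2 to 28.5) and 28.8% (27.7 to 30.0), and Mir467c 21.8% (20.7 to 22.9) and 21.1% (20.2 to 22.2). Mir669o took 5.46% (4.90 to 6.08) and 6.22% (5.65 to 6.84). For each of these 4 genes the intervals of the pups overlapped, and they cover counting error only.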

How the data were processed

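MicroRNA-seq of intestine from 2 newborn pups was used. The authors deposited raw read counts for each miRNA gene. They name the mm10 assembly and GENCODE M4 in the text deposited alongside. Which aligner and counter they ran is not given in the sources used here. The 3 count columns, from their sums, hold reads on either, the annotated and the opposite strand, and the 4 totals of reads outside genes stayed out of library sizes. Symbols and coordinates came from GENCODE M21 (GRCm38) by identifier, for 1894 of 1973 rows, and the other 79 held 0 counts. Members and lists were chosen with earlier results of these data known. The rule for members named with their values took the detected ones and those up to the 20 highest, of which only 18 had any count. Members with 0 counts that are named were chosen after their values were seen. TMM scaling used edgeR 4.0.16, and DESeq2 1.42.0 gave alternative size factors. The exact binomial test used scipy 1.17.1 and was tested on simulated Poisson counts with 2-fold changes. That simulation held no variation beyond counting error, and its changes were larger than those of the detected members here. Sequence sharing was computed from GENCODE M21 miRNA transcripts. Alternatives were other scalings, count minimums of 1 and 100, reads on either strand, all reads as denominator, the cluster without its highest member, and each pup alone.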

Additional observations from a re-analysis of the deposited data

How the results depend on the processing

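The number of members called lower in pup 2 was 4 with TMM, DESeq2 size factors, total counts, reads on either strand and both other count minimums, and 3 with upper-quartile scaling, where Mir467e (log2 ratio -0.08) was not called. The median log2 ratio of the tested members ranged from -0.28 to -0.20 over these settings. The ratio of Mir669o turned to 0.03 with upper-quartile scaling, and no other member tested at the main minimum changed sign. With a minimum of 1 count 13 members were detected, and with 100 counts 6. The summed level was 828 CPM with all reads as denominator and 948 CPM without Mir467d, both by construction. Each pup alone gave 8 to 9 detected members and a sum of 1355 to 1603 CPM. Depth limits the members with the fewest counts, and reads with several places stay outside every value here.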
